A study of Mus musculus with 11 samples.

Results

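The immediate early genes Fos, Jun, Junb, Egr1, Atf3, Ier2, Ier3 and Myc and the zinc finger genes Klf10 and Klf6 were followed across 11 liver arrays. These 10 genes were read by 13 probes, out of 22911 genes and 56605 probes on the array, and every probe that a RefSeq accession assigned to one of the 10 names was taken. Klf10 was picked because it was lower with NICD2 in these same data, so its values in the NICD2 and GFP groups are a description. The other genes were picked as members of one known response.

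The mice were C57Bl6/J males injected at 8 weeks of age with adeno-associated virus of serotype 8 (AAV8), a vector that reaches liver cells well, and liver RNA was taken 5 days later. The intracellular domain of Notch1 (NICD1) and that of Notch2 (NICD2) are the fragments that enter the nucleus and switch on Notch target genes. The GFP group (3 arrays) received 6e+11 viral genomes of AAV8-GFP. The NICD1 group (3 arrays) and the NICD2 group (3 arrays) each received 3e+11 of their own vector with 3e+11 of GFP vector. The NICD1&2 group (2 arrays) had both NICD vectors, at 3e+11 each, and none of the GFP vector. Every mouse thus carried the same total dose of virus. All vectors used the CMV promoter, which is not specific to hepatocytes, and the RNA was that of whole liver. In such RNA, fewer cells of a type and less RNA per cell cannot be told apart.

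Immediate early genes are transcribed within minutes of a stimulus, without new protein synthesis, and their RNAs decay fast. Growth factors, stress and cytokines reach them through MAP kinases, serum response factor and CREB/ATF proteins, and in liver they are well known for their burst after partial hepatectomy, injury or handling of the tissue. Klf10, also called TIEG1, is a zinc finger repressor induced by TGF-beta and tied to the liver's clock and to glucose and lipid metabolism. Klf6 is a related zinc finger factor of the injured liver.

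Values are log2 signals set to 0 at the 75th percentile of each array, so a step of 1 is a doubling, and levels of different probes were not set against each other. A flag of the scanner software states whether a spot was well above background. All 10 genes had a probe well above background on 11 of 11 arrays, and only the dimmer Klf10 probe fell short of this, with 6 of 11. In limma, 36055 probes that reached this flag on 2 arrays or more were fitted together. All 10 hepatocyte markers checked, Alb, Ttr and Apob among them, were well above background on every array.

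Notch itself was checked first. Hes1, a repressor that Notch induces directly, differed from GFP by -0.03 on the log2 scale (standard error 0.45) with NICD1, by 1.64 (standard error 0.45) with NICD2 and by 1.36 (standard error 0.50) with NICD1&2. Nrarp, a feedback inhibitor of Notch, was not well above background on any GFP array, passed that flag on 2 of 3 NICD1 arrays (-5.19 to -3.83 beside -6.92 to -4.60 in GFP), and was at least 4.65-fold higher with NICD2 and at least 7.07-fold higher with NICD1&2. The Notch1 probe differed by 0.22 (standard error 0.28) with NICD1, -0.37 (standard error 0.28) with NICD2 and 0.16 (standard error 0.32) with NICD1&2. The Notch2 probe differed by 0.29 (standard error 0.10) with NICD1, 0.21 (standard error 0.10) with NICD2 and -0.0016 (standard error 0.11) with NICD1&2. Whether these 2 probes lie in the part of the RNA that the vectors carry was not tested. None of these values passed an adjusted p of 0.05 in limma, with 0.104 for Nrarp in NICD2 and 0.072 in NICD1&2 as the nearest.

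Klf10 was lower than in the GFP group with each NICD vector, on both of its probes, and every NICD array lay below the lowest GFP array of its probe. On the brighter probe the nearest array, NICD2 3, lay just under GFP 1. The brighter probe (A_55_P2022074) read 3.17, 3.56 and 3.31 on the GFP arrays and 1.08, 2.81 and 2.86 on the NICD1 arrays. It read 1.86, 2.16 and 3.15 on the NICD2 arrays and 2.79 and 2.62 on the NICD1&2 arrays. The GFP arrays lay within 0.38 of each other, whereas the NICD1 and NICD2 arrays spread over 1.77 and 1.29, with NICD1 1 the lowest array of all. The group differences from GFP were -1.10 (standard error 0.48) for NICD1, -0.96 (standard error 0.48) for NICD2 and -0.64 (standard error 0.54) for NICD1&2. Without the array NICD1 1 the NICD1 difference shrank to -0.51. The NICD2 difference ran from -1.34 without NICD2 3 to -0.69 without NICD2 1.

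The dimmer Klf10 probe (A_55_P2500722), which is assigned to another RefSeq transcript of the gene, separated the groups more widely. It read -2.71, -3.28 and -2.92 on the GFP arrays, -4.05, -4.19 and -3.54 on the NICD1 arrays, -5.0, -5.12 and -4.73 on the NICD2 arrays and -5.08 and -3.96 on the NICD1&2 arrays. All 3 GFP and all 3 NICD1 arrays had it well above background, and none of the NICD2 or NICD1&2 arrays did. Klf10 by this probe was 0.95 lower with NICD1 on the log2 scale (standard error 0.30) and at least 3.14-fold lower with NICD2, and at least 2.16-fold lower with NICD1&2. These bounds set each dim array at the lowest signal of any probe still well above background on it, or at its own signal if higher. They hold for the deposited values only. Under another background correction (normexp with quantile normalization) the probe differed from GFP by only -0.26 with NICD1, -0.39 with NICD2 and -0.36 with NICD1&2 on the log2 scale, which falls short of both bounds. Whether either probe reads 1 transcript alone was not tested.

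By the definition of an altered gene used in the study, an unadjusted P under 0.15 with a fold change over 1.8, 1 of the 10 genes, Klf10, was altered in NICD1 and in NICD2, beside 2.22% and 1.98% of all probes tested. The P here is that of limma, as the methods do not name the test used on the arrays. These shares are therefore not comparable with the study's own counts. NICD2 against GFP chose the gene, and NICD1 shares its GFP arrays, so nothing is read from either. Arrays lay wholly below GFP for 1 of the 10 genes, again Klf10, in each of the 3 groups, beside 5.44% of probes in NICD1, 5.66% in NICD2 and 10.4% in NICD1&2.

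Klf10 was tested in the pair of groups that had no part in its choice, NICD1&2 against NICD1. The brighter probe was 0.46 higher with NICD1&2 (95% confidence interval -0.76 to 1.67, limma adjusted p = 0.739), and an exact two-sided permutation test over the 2 and 3 arrays gave p = 1.0. The smallest p that this permutation can give is 0.1. The dimmer probe, not well above background on either NICD1&2 array, allowed only a bound, at least 1.11-fold lower with NICD1&2 (limma adjusted p = 0.469), and its groups overlapped. Neither probe passed, and the interval of the brighter one includes more than a doubling. Without NICD1 1 the brighter probe stood at -0.13.

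The arrays had been run on 2 slides, slide 1 with the 4 arrays numbered 1 (GFP 1, NICD1 1, NICD1&2 1 and NICD2 1) plus GFP 2 and NICD2 2, and slide 2 with the remaining 5. For the brighter Klf10 probe the NICD2 difference from GFP was -1.36 within slide 1 (2 arrays against 2) and -0.16 within slide 2 (1 against 1). The NICD1 difference was -2.28 and -0.48, and the NICD1&2 difference -0.57 and -0.69. For the dimmer probe the NICD1 difference was -1.06 and -0.94. Within slides 1 or 2 arrays stood on each side, so these values have no test. Each of these differences of Klf10 from GFP was below 0. This had to be so, since every NICD array lay below every GFP array on both probes, and it adds nothing to that. NICD1&2 against NICD1 changed sign between slides for the brighter probe, at 1.71 and -0.22.

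**Figure D1:**
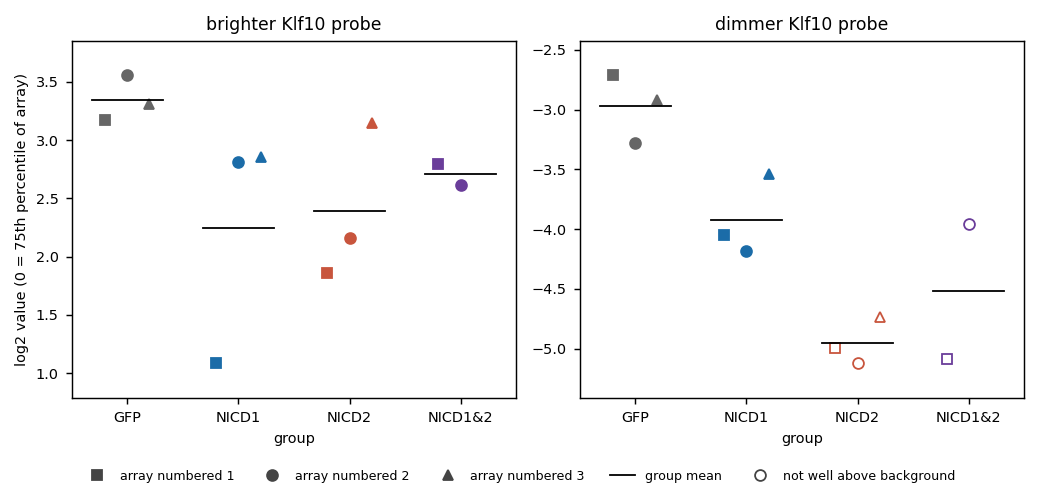
Log2 value of the brighter (left) and dimmer (right) Klf10 probe on each array, by group, with the group mean as a line, filled symbols for arrays on which the probe was well above background and open symbols where it was not. The 3 GFP arrays lie above all 8 NICD arrays on both probes, and the dimmer probe is open on all NICD2 and NICD1&2 arrays.

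As a description over the 11 arrays, the genes whose probe followed the brighter Klf10 probe most closely were Zdhhc13 (Pearson r = 0.91), Mapk1ip1 (r = 0.90), Elk1 (r = 0.89), Ankrd16 (r = 0.89) and Mgat4f (r = 0.89), the last well above background on 2 arrays only. The dimmer probe was followed most closely by Csf1 (r = 0.95). The other 9 genes had r from 0.33 (Junb) to 0.73 (Egr1) with the brighter probe and from -0.20 (Ier2) to 0.39 (Atf3) with the dimmer one. The arrays share the groups' differences and the low array NICD1 1, so these values carry no test.

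Klf6 was the steadiest of the 10 genes. It read 1.11, 1.17 and 1.42 on the GFP arrays, 0.74, 1.30 and 1.30 on the NICD1 arrays, 1.21, 1.09 and 1.46 on the NICD2 arrays and 0.97 and 1.52 on the NICD1&2 arrays. The groups overlapped throughout. Its differences were -0.12 (95% confidence interval -0.58 to 0.34) for NICD1 against GFP, 0.02 (standard error 0.20) for NICD2 against GFP, and 0.01 (95% confidence interval -0.50 to 0.53) for NICD1&2 against GFP, so a doubling of Klf6 lay outside both intervals. Klf6 differed from GFP by -0.40 within slide 1 and -0.12 within slide 2 for NICD1, by 0.011 and 0.044 for NICD2, and by -0.17 and 0.10 for NICD1&2.

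Fos, Jun, Junb and Atf3 encode basic leucine zipper proteins that pair with one another, Fos and the Jun proteins as the AP-1 factor and Atf3 as a stress-induced partner and repressor of the ATF/CREB family. The sequence before the start site of the 3 of these leucine zipper genes that moved most between arrays, Fos, Jun and Atf3, and of Klf6, which moved little, is shown for reference, 250 bases ahead of the start, 5′ to 3′ on the gene's strand, from RefSeq (GRCm38.p6). Capitals mark TGACG, the short site of CREB/ATF proteins, TGACNTCA, the full site, each searched on both strands, and TATAA, the core of the TATA box, searched on the gene's strand. A full site with G at the open base counts for both of the first 2 motifs.
Fos, chr12:85473640-85473889, plus strand: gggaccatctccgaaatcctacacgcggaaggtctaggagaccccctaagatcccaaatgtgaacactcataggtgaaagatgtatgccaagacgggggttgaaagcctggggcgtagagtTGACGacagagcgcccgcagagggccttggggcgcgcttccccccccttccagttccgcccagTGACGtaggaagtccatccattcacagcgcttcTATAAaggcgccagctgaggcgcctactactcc
Jun, chr4:95052223-95052472, minus strand: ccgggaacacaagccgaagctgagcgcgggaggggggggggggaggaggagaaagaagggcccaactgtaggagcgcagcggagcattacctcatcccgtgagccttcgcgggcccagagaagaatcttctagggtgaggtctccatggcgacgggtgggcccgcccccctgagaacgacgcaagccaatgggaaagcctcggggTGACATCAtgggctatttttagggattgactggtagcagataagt
Atf3, chr1:191183334-191183583, minus strand: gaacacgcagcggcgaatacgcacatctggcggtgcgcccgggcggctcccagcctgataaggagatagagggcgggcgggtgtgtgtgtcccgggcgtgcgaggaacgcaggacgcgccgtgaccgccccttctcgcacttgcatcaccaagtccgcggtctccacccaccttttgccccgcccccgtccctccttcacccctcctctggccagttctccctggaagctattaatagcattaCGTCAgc
Klf6, chr13:5861239-5861488, plus strand: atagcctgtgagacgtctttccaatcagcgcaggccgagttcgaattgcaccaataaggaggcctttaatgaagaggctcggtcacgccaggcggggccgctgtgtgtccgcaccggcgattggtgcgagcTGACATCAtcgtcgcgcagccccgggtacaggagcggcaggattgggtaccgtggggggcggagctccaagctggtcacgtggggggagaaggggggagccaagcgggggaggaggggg

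In these windows Fos held TGACG 129 and 66 bases before the start and TATAA 33 bases before it. Jun held TGACNTCA 45 bases before the start, the known AP-1 and ATF site through which Jun is induced. Atf3 held TGACG on the opposite strand 7 bases before the start, and Klf6 held TGACNTCA 119 bases before it. Of the 6 genes of the 10 with a RefSeq promoter at hand, Junb also held TGACG and Ier3 TATAA. Among 32851 mouse promoters of the same length, 17.8% held TGACG, 7.49% TGACNTCA and 16.0% TATAA, so that such matches are common and mark no site in use. Klf10, Egr1, Ier2 and Myc are not shown.

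Fos spread over 6.31 log2 units between arrays, a 79.1-fold range, while its group means lay close together. It read -0.92, 1.54 and 0.86 on the GFP arrays, -3.45, 2.03 and 2.45 on the NICD1 arrays, -2.44, 1.09 and 2.16 on the NICD2 arrays and -1.29 and 2.86 on the NICD1&2 arrays. In every group the array numbered 1 was the low one, and all 4 of these arrays lay below the other 7. The difference from GFP was -0.15 with NICD1 (95% confidence interval -4.30 to 4.01), -0.22 with NICD2 (standard error 1.83) and 0.29 with NICD1&2 (95% confidence interval -4.35 to 4.93). Intervals of this width include changes of over 10-fold both ways, so a change of Fos within them was not detectable, and these near-zero means are averages over low and high arrays. Fos differed from GFP by -3.76 within slide 1 and 1.38 within slide 2 for NICD1, by -0.98 and 1.31 for NICD2, and by -1.60 and 2.00 for NICD1&2. With the slide as a factor the NICD1 difference of Fos was -1.23.

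Jun showed the same split of arrays. Its values were 3.48, 4.73 and 5.01 with GFP, 1.85, 4.78 and 5.20 with NICD1, 2.55, 4.93 and 5.95 with NICD2 and 3.54 and 5.07 with NICD1&2. The 4 arrays numbered 1 lay between 1.85 and 3.54, and the other 7 between 4.73 and 5.95. The difference from GFP was -0.46 with NICD1 (95% confidence interval -2.88 to 1.96), 0.07 with NICD2 (standard error 1.07) and -0.10 with NICD1&2 (95% confidence interval -2.81 to 2.61). Jun differed from GFP by -2.25 within slide 1 and -0.017 within slide 2 for NICD1, by -0.36 and 0.94 for NICD2, and by -0.57 and 0.064 for NICD1&2. With the slide as a factor the NICD1 difference of Jun was -1.12.

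Atf3 ranged over 29.5-fold within the NICD2 group alone. It read -2.01, 0.02 and 0.76 on the GFP arrays, -3.13, -0.22 and 0.64 on the NICD1 arrays, -3.23, -2.32 and 1.65 on the NICD2 arrays and -3.15 and 0.87 on the NICD1&2 arrays. Here NICD2 2 was also low. The difference from GFP was -0.49 with NICD1 (95% confidence interval -4.07 to 3.08), -0.89 with NICD2 (standard error 1.58) and -0.73 with NICD1&2 (95% confidence interval -4.73 to 3.26). Atf3 differed from GFP by -2.13 within slide 1 and -0.55 within slide 2 for NICD1, by -1.78 and 0.89 for NICD2, and by -2.16 and 0.11 for NICD1&2. With the slide as a factor the NICD1 difference of Atf3 was -1.60.

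Junb varied far less on its brighter probe, with 5.70, 6.07 and 6.26 on the GFP arrays, 5.64, 6.18 and 5.78 on the NICD1 arrays, 5.91, 5.92 and 6.53 on the NICD2 arrays and 6.23 and 7.04 on the NICD1&2 arrays. Both NICD1&2 arrays lay above all NICD1 arrays, as was so for 22.0% of all probes. Junb was the 1 gene of the 10 with an unadjusted p under 0.05 in NICD1&2 against NICD1, at 0.76 higher (standard error 0.30, 95% confidence interval 0.09 to 1.44), and it did not pass over all probes (limma adjusted p = 0.380). Without NICD1&2 2 the difference was 0.36. Within slides it was 0.59 (1 array against 1) and 1.06 (1 against 2). The dimmer Junb probe gave 0.32 (standard error 0.65) in the same comparison and -0.44 against GFP, where the brighter one gave 0.62 (95% confidence interval -0.05 to 1.30), so the 2 probes differed in sign against GFP. On the dimmer probe the arrays numbered 1 lay between -3.00 and -1.42 and the others between -1.53 and -0.70. Junb differed from GFP on the brighter probe by -0.25 within slide 1 and -0.28 within slide 2 for NICD1, by 0.031 and 0.27 for NICD2, and by 0.34 and 0.78 for NICD1&2.

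Egr1, a zinc finger factor downstream of serum response factor, behaved like Fos and Jun. It read 2.61, 3.54 and 3.53 on the GFP arrays, -0.79, 2.93 and 3.96 on the NICD1 arrays, 1.07, 3.56 and 4.71 on the NICD2 arrays and 1.11 and 3.86 on the NICD1&2 arrays. All 4 arrays numbered 1 lay below the other 7, the NICD1 one farthest. The difference from GFP was -1.19 with NICD1 (95% confidence interval -4.21 to 1.82), -0.11 with NICD2 (standard error 1.33) and -0.74 with NICD1&2 (95% confidence interval -4.11 to 2.63). Egr1 differed from GFP by -3.86 within slide 1 and -0.085 within slide 2 for NICD1, by -0.76 and 1.18 for NICD2, and by -1.97 and 0.34 for NICD1&2. With the slide as a factor the NICD1 difference of Egr1 was -2.01.

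Ier2, a small nuclear protein of the same response, kept the order of arrays over a narrower range. Its values were 1.58, 2.26 and 1.97 with GFP, 1.08, 2.16 and 2.30 with NICD1, 1.62, 2.58 and 3.23 with NICD2 and 1.86 and 3.00 with NICD1&2. The highest array numbered 1, at 1.86, stood just under the lowest of the others, at 1.97. Its difference from GFP was -0.09 with NICD1 (95% confidence interval -1.19 to 1.0), 0.53 with NICD2 (standard error 0.48) and 0.49 with NICD1&2 (95% confidence interval -0.73 to 1.72). Ier2 differed from GFP by -0.84 within slide 1 and 0.26 within slide 2 for NICD1, by 0.17 and 1.26 for NICD2, and by -0.063 and 1.03 for NICD1&2.

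Ier3, which protects cells from apoptosis in many settings, read -3.19, -2.79 and -2.64 on the GFP arrays, -3.49, -2.60 and -2.77 on the NICD1 arrays, -3.62, -3.35 and -2.37 on the NICD2 arrays and -2.99 and -1.82 on the NICD1&2 arrays. The array numbered 1 was again the lowest of each group, though NICD1&2 1 stood above NICD2 2. The difference from GFP was -0.08 with NICD1 (95% confidence interval -1.0 to 0.84), -0.24 with NICD2 (standard error 0.41) and 0.47 with NICD1&2 (95% confidence interval -0.57 to 1.50). Ier3 differed from GFP by -0.50 within slide 1 and -0.047 within slide 2 for NICD1, by -0.50 and 0.27 for NICD2, and by 0.00092 and 0.81 for NICD1&2.

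Myc, the growth-promoting factor that follows the first wave of the response, had its widest spread in the GFP group, where it read -2.39, 1.39 and -0.83, a 13.7-fold range. It read -2.12, 1.27 and 0.31 on the NICD1 arrays, -2.29, -1.23 and -0.88 on the NICD2 arrays and -0.12 and 1.0 on the NICD1&2 arrays. Both NICD1&2 arrays lay above all NICD2 arrays, as did 18.1% of all probes. That difference of 1.91 (standard error 1.19) met the study's definition, which 3.06% of probes met, and did not pass in limma (adjusted p = 0.600). The dimmer Myc probe gave 0.87 (standard error 0.81) with the same order of these groups. Against GFP the brighter probe differed by 0.43 with NICD1 (95% confidence interval -1.97 to 2.83), by -0.85 with NICD2 (standard error 1.06) and by 1.05 with NICD1&2 (95% confidence interval -1.63 to 3.74). Myc differed from GFP on the brighter probe by -1.62 within slide 1 and 1.62 within slide 2 for NICD1, by -1.26 and -0.047 for NICD2, and by 0.39 and 1.83 for NICD1&2.

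**Figure D2:**
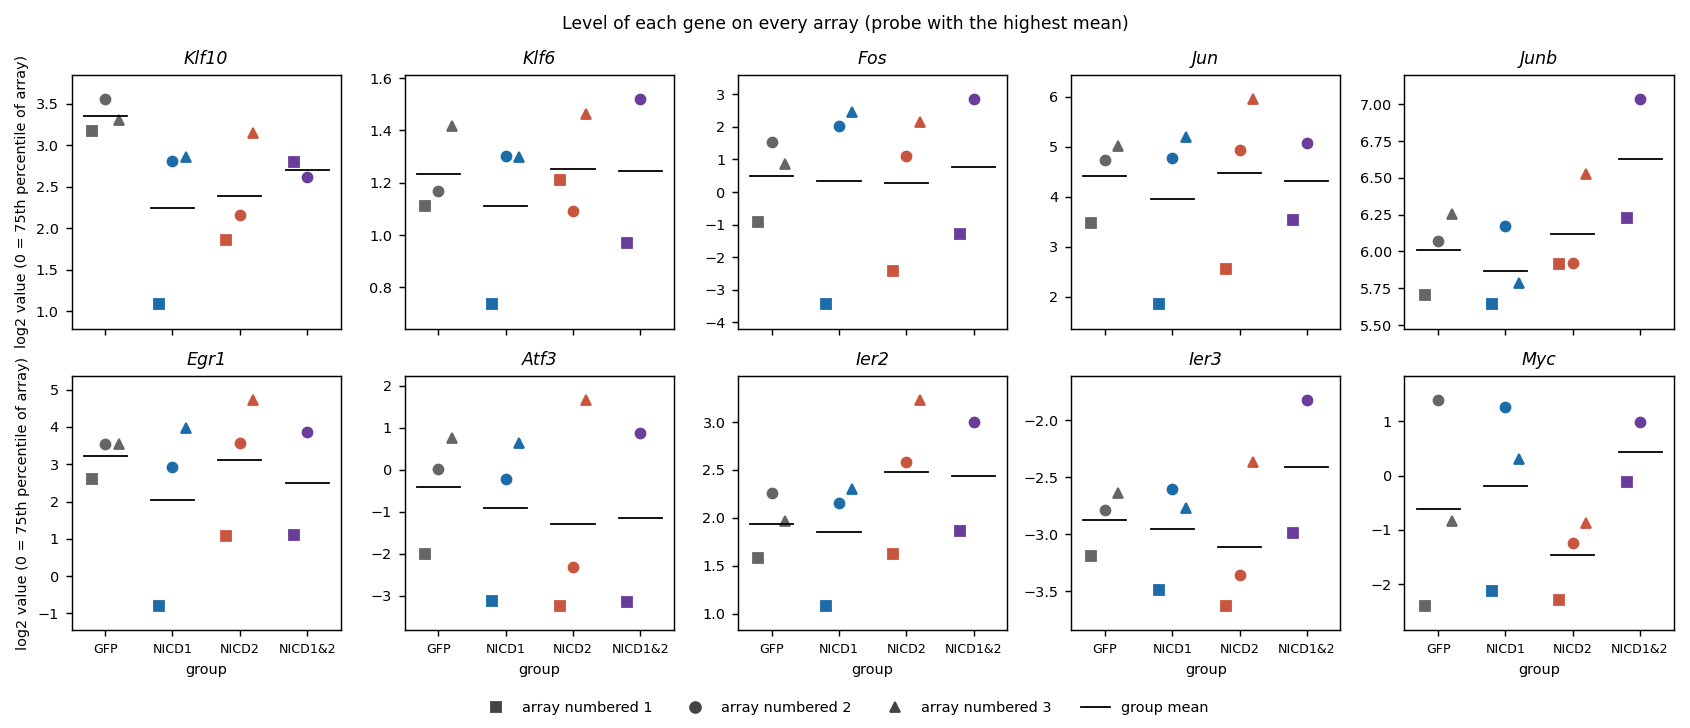
Log2 value of the brightest probe of each gene on every array, by group, with the group mean as a line and the symbol showing the array's number (the vertical axes differ between panels). The square, the array numbered 1, is the lowest of its group in all 4 groups for 8 of the 10 genes, and for Fos, Jun, Egr1 and Ier2 all 4 squares lie below the other 7 arrays.

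Spread within groups, not difference between groups, was thus the main feature of these genes. The residual SD about the group means was 2.54 on the log2 scale for Fos, 2.19 for Atf3, 1.84 for Egr1, 1.48 for Jun and 1.47 for Myc, each above the 99th percentile of the 36055 probes. That of Ier2, Klf10 and Ier3 was 0.66, 0.66 and 0.56, wider than 89.4%, 89.2% and 84.7% of probes. Junb, at 0.36, and Klf6, at 0.26, were wider than 71.1% and 59.3%. In all, 5 of the 10 genes lay above the 99th percentile and 8 above the 80th.

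The spread had one shape. The array numbered 1 was the lowest of its group in 38 of 40 cases, taking 10 genes in 4 groups, and in all 4 groups for 8 of the 10 genes, every one but Klf10 and Klf6. This was read on the brightest probe of each gene. Over all 13 probes the count was 9, and the dimmer Myc probe did not show it. Over all probes tested 3.3% had the array numbered 1 lowest in all 4 groups, and 1.94% had it highest. All 4 of these arrays lay below the other 7 for 4 of the 10 genes, Fos, Jun, Egr1 and Ier2, against 0.499% of probes. The median deviation of the 10 genes from their group mean was -0.49 on GFP 1, -1.55 on NICD1 1, -0.84 on NICD2 1 and -0.58 on NICD1&2 1. Over all probes the median deviation on these arrays lay between -0.04 and 0.03. Each array had been scaled to the same percentile, so these medians cannot show whether an array was low as a whole. The pattern was noticed in these values, and it has no test.

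The 4 arrays numbered 1 were all on slide 1, which also held GFP 2 and NICD2 2. On GFP 2, 1 of the 10 genes was below its group mean, with a median deviation of 0.32, and on NICD2 2 it was 5 of the 10, with -0.03. On the 5 arrays of slide 2 the median deviation lay between 0.24 and 0.75, with 0 to 2 of the 10 genes below the group mean, so the low arrays were all on slide 1 and no array of slide 2 was low. The part of the slide in the spread was not tested. How the numbers relate to the taking or handling of the livers is not given in the sources used here.

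**Figure D3:**
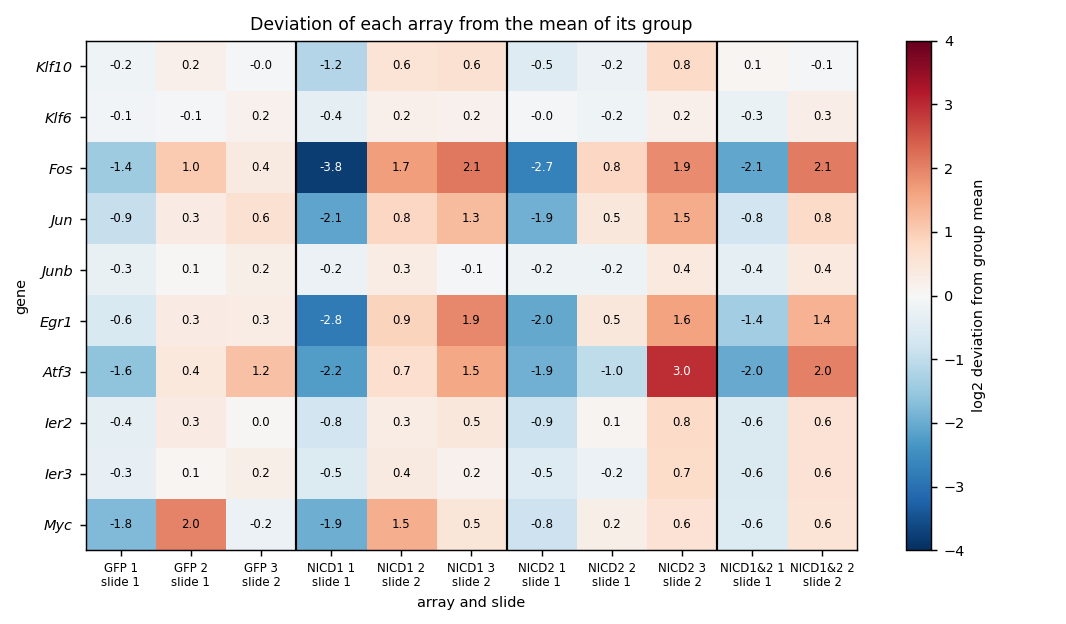
Deviation of each array (columns, with its slide) from the mean of its group on the log2 scale, for the brightest probe of each gene (rows), with blue below and red above the group mean and vertical lines between groups. The columns GFP 1, NICD1 1, NICD2 1 and NICD1&2 1 are blue for Fos, Jun, Egr1, Atf3 and Myc, while GFP 2 on the same slide is not.

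No gene of the 10 was called in any comparison in which it was tested. In NICD1 against GFP, where 0.00832% of all probes were called, 0 of the 9 genes other than Klf10 passed in limma, 0 had an unadjusted p under 0.05 (5.48% of all probes), and 9 of 9 overlapped between the groups. For NICD2 against GFP, where 0.0527% were called, no test of these genes is given. In NICD1&2 against GFP, where 0.0998% were called, the count was again 0 of 9, with 0 under an unadjusted 0.05 (14.8%) and the lowest adjusted p at 0.361, for Junb. In NICD1&2 against NICD1, where 0.0139% were called, it was 0 of 10, with 1, Junb, at an unadjusted p under 0.05 (12.5%). In NICD1 against NICD2 and in NICD1&2 against NICD2, where 0.00277% were called in each, it was 0 of 9, with 0 under an unadjusted 0.05 (3.74% and 8.9%). For the interaction of both vectors, where 0.0% were called, it was 0 of 9 as well, with 0 under an unadjusted 0.05 (7.03%).

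The direction of the differences varied between comparisons. Of the 10 genes 9 had a lower mean in NICD1 than in GFP, with a median difference of -0.14 beside 0.01 over all probes. In NICD2, 6 were lower, with a median of -0.16 beside 0.02, and in NICD1&2, 4 were lower, with a median of 0.15 beside 0.12. Between NICD1&2 and NICD1, 9 of 10 were higher in NICD1&2, with a median of 0.45 beside 0.10. For the interaction, NICD1&2 less NICD1 less NICD2 plus GFP, all 10 were above 0, with a median of 0.65 beside 0.07, and the lowest adjusted p of the 9 genes other than Klf10 was 0.723. The standard errors of the 9 genes other than Klf10 ran from 0.20 to 1.83 against GFP in the groups of 3 arrays. The comparisons against GFP share the GFP arrays. All these counts and medians include Klf10, whose choice used the NICD2 and GFP arrays, and which stood at 1.41 in the interaction. The counts also turn on single arrays. Without NICD1 1 only Klf10 and Junb, 2 of the 10, were lower in NICD1 than in GFP, with a median of 0.25, and 3 were higher in NICD1&2 than in NICD1. Without NICD1&2 2 the latter count was 4. The interaction was above 0 for 4 genes without NICD1 1, 4 without NICD1&2 2 and 5 without NICD2 1. The count of genes below GFP went from 2 without NICD2 1 to 9 without NICD2 3 or GFP 1 in NICD2, and from 1 without NICD1&2 1 to 8 without NICD1&2 2 in NICD1&2.

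**Figure D4:**
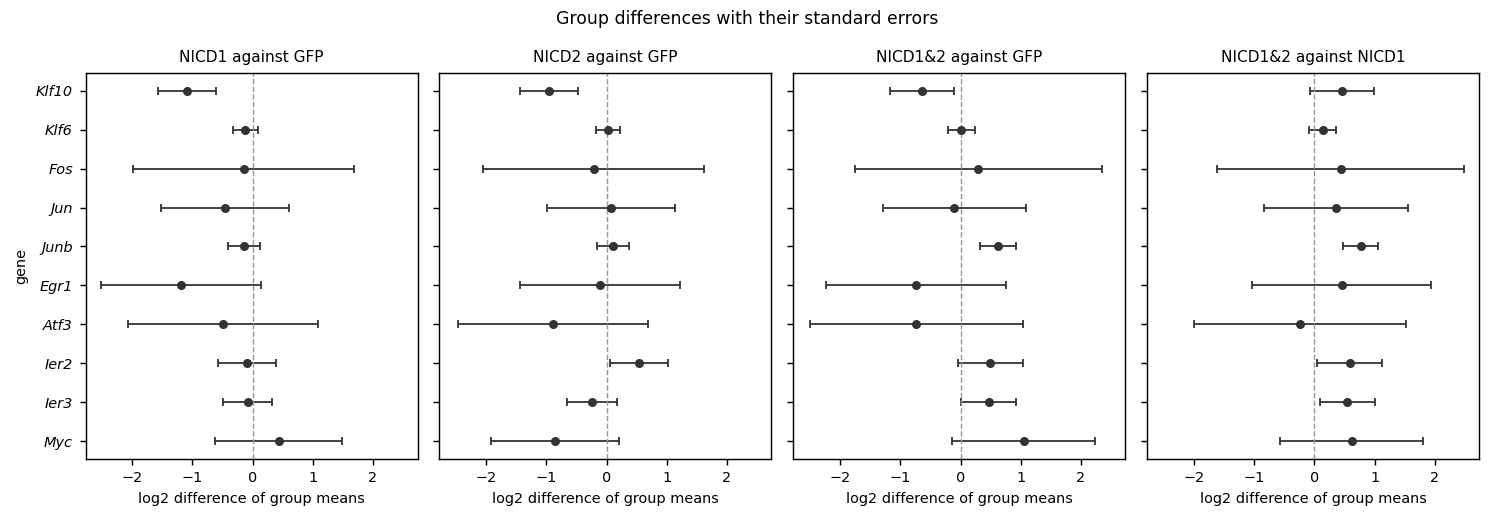
Log2 difference of group means for the brightest probe of each gene in 4 comparisons, with bars of 1 standard error from the limma fit and a dashed line at 0. Fos, Egr1 and Atf3 carry the widest bars, and Klf10 lies left of 0 in all 3 comparisons against GFP and right of it in NICD1&2 against NICD1.

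Other genes of the same pathways were counted from lists chosen by function. Among 33 other immediate early genes tested, 9 had the array numbered 1 lowest in all 4 groups, beside 3.3% of all probes tested. They were Nr4a1, Btg2, Zfp36, Dusp1, Ccn1, Plk3, Trib1, Socs3 and Per1, which are named for that pattern. Among 14 other AP-1 and ATF subunits it was 3, Fosb, Jund and Maff. Nr4a1, an orphan nuclear receptor of the immediate early class, lay between -0.86 and 1.52 on the arrays numbered 1 and between 0.80 and 4.74 on the others. Dusp1, the phosphatase that shuts off MAP kinases, lay between 2.10 and 4.20 and between 4.43 and 5.61. The count was 2 of 18 circadian clock genes (Per1 and Bhlhe40), 0 of 13 other KLF family genes, 0 of 17 upstream genes of the MAP kinase and serum response path, and 0 of 20 TGF-beta ligands, receptors and targets. Beside a share of 3.3% over all probes, a count of 0 in a list of this size does not set it apart.

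No gene of these 6 lists was called in limma in any of the 3 comparisons against GFP. At an unadjusted p under 0.05 the other immediate early genes counted 3 of 33 in NICD1, 7 in NICD2 and 5 in NICD1&2, where all probes gave 5.48%, 6.81% and 14.8%. Their median differences were -0.21, -0.05 and 0.15. Socs3, the feedback inhibitor of cytokine signalling, stood at -1.63 (standard error 0.71, adjusted p = 0.721) in NICD2, Ccn1, a matricellular protein, at -1.04 (standard error 0.46, adjusted p = 0.901) in NICD1, and Cebpd, an acute phase factor, at 1.04 (standard error 0.31, adjusted p = 0.480) in NICD2 and 1.05 (standard error 0.34, adjusted p = 0.249) in NICD1&2. These genes were named for differences in which the NICD arrays lay on one side of GFP. Ccn2 stood at 0.90 (standard error 0.46) in NICD1&2, and Jdp2, a repressing partner of Jun, at 1.06 (standard error 0.24, adjusted p = 0.289) in NICD2.

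The TGF-beta list, to which Klf10 is tied by its induction, had 6 of 20 genes at an unadjusted p under 0.05 in NICD1, 3 in NICD2 and 2 in NICD1&2, beside 5.48%, 6.81% and 14.8% of all probes, with median differences of -0.03, -0.08 and 0.11. Id2, a dominant-negative helix-loop-helix factor, stood at -0.97 (standard error 0.28) in NICD1 and -1.36 (standard error 0.28, adjusted p = 0.224) in NICD2. It did not pass over all probes in either. These differences share the GFP arrays with those of Klf10.

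Of the clock list, 1, 6 and 4 of 18 genes had an unadjusted p under 0.05 in NICD1, NICD2 and NICD1&2, beside the same 5.48%, 6.81% and 14.8%. Ciart, a repressor of the clock, stood at 0.87 (standard error 0.18, adjusted p = 0.224) in NICD2 and 0.89 (standard error 0.20, adjusted p = 0.152) in NICD1&2. Npas2, the partner of Bmal1, passed the background flag on 2 of 3 GFP arrays and on 0 of 3 NICD2 arrays, and was at least 1.36-fold lower in NICD2. In the KLF family, Klf5 was well above background on 1 of 2 NICD1&2 arrays and 0 of 3 GFP arrays, at least 1.78-fold higher. The other AP-1 and ATF subunits and the upstream kinases gave 2 and 1 genes at an unadjusted p under 0.05 in NICD1, 2 and 1 in NICD2 and 1 and 2 in NICD1&2.

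Markers of the cells that whole liver holds were checked on the same arrays, 53 genes in 8 lists. The array numbered 1 was lowest in all 4 groups for 1 of the 53, Spp1, beside 3.3% of all probes tested. The summed level of 1 of the 8 lists, that of bile duct, was lowest on that array in all groups, with 0 highest. Spp1, which encodes osteopontin, a secreted protein of bile duct and activated cells, was also the 1 marker called between groups, at 1.81 (standard error 0.20, adjusted p = 0.027) in NICD2 and 2.23 (standard error 0.22, adjusted p = 0.011) in NICD1&2 against GFP. In NICD1, Spp1 stood nearly as high, at 1.71 (standard error 0.20, adjusted p = 0.096), but was not called. The summed level of the 5 bile duct markers, on the linear scale with the array's 75th percentile as 1, ran from 6.63 to 9.69 in GFP, 22.3 to 30.4 in NICD1, 22.2 to 30.0 in NICD2 and 31.6 to 39.8 in NICD1&2, and 3 of the 5 were well above background on all arrays. Such a sum follows the brightest probe, here that of Spp1. The median differences of the list from GFP were 0.44, 0.48 and 0.63. Klf10 was lower in the groups in which Spp1 was higher, and the part of other cells in its values was not tested. Of the other lists, Lyve1, an endothelial marker, stood at 0.86 (standard error 0.19, adjusted p = 0.285) in NICD2 and 0.93 (standard error 0.22, adjusted p = 0.162) in NICD1&2. The neutrophil marker Retnlg stood at -0.99 (standard error 0.26) in NICD1 and -1.11 (standard error 0.29) in NICD1&2. Cxcr2, another neutrophil marker, went the other way in NICD1&2, at 0.92 (standard error 0.43). The median difference of the neutrophil list lay below GFP in NICD1, above it in NICD2 and close to it in NICD1&2. That of the endothelial list lay close to GFP in each group. None of Lyve1, Retnlg and Cxcr2 passed over all probes.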

How the data were processed

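Liver RNA was labelled with Cy3, hybridized to Agilent 1-colour arrays and read with Feature Extraction 11.5.1.1, per the file headers. The deposited processed signals are intensities from which the authors' software had removed background and spatial trend. The deposited table, made by the authors in GeneSpring GX, holds log2 signals shifted so that the 75th percentile of an array is 0, and these values were used. They differed from log2 of the processed signals by a constant shift per array, within 0.05 for at least 99.98% of probes. Each array held 62976 spots, of which 3671 were controls, with 57.0% to 62.0% of the others well above background and 0 saturated. The methods name a smaller array format and the RNeasy Micro Kit, whereas the labels name the NucleoSpin RNA XS kit.

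Spots of a probe were averaged. Genes were named through RefSeq accessions, for 32994 probes, and a list gene was represented by its tested probe with the highest mean. Of 56605 probes, 36055 were flagged well above background on 2 or more of 11 arrays and were fitted with lmFit and eBayes (limma 3.58.1, R 4.3.3), with 1 mean per group over all arrays and Benjamini-Hochberg adjustment over all probes tested. Calls were made at an adjusted p under 0.05. The fit was tested on simulated data. Klf10 was tested in NICD1&2 against NICD1 only, by limma and by exact permutation of arrays (scipy 1.17.1), and no p-value of the 10 genes is printed for NICD2 against GFP, the contrast that chose it, where only thresholds met are described. The methods state that several mice were used per group, but the labels tie no array to an animal, so p-values measure the spread between these samples, which may be technical, and the number of arrays limits the precision. The genes and lists were chosen with earlier results of these data known.

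All members were named with every probe. Of the related lists, genes called in any comparison were named, and, in each comparison against GFP, up to 2 highest and 2 lowest differences of a list among genes that met the study's definition with arrays apart from GFP, of which the text gives the larger part. The values of 1 gene of these lists are not reported here. Notch1, Notch2, Hes1 and the 5 genes nearest to Klf10 by Pearson r were added. Genes named for the arrays numbered 1 were chosen after their values were seen. The alternatives were the scanner signals, quantile normalization, a 75th percentile taken over the probes detected on every array, normexp (offset 50) with quantile normalization, no filter, a filter of all 11 arrays, the compared groups alone, array weights, a block for the replicate number, a factor for the slide, leaving out each array, the other probes of a gene and the study's definition of an altered gene.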

Additional observations from a re-analysis of the deposited data

How the results depend on the processing

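No member was called at an adjusted p under 0.05 under any alternative in the comparisons in which it was tested. Klf10 against GFP was not tested, since its choice used those arrays. There its dimmer probe went under 0.05 in NICD2 without either NICD1&2 array and in NICD1&2 under normexp, which is no support for it. By the study's definition 1 member counted in each of NICD1 against GFP, NICD2 against GFP and the interaction (Klf10), and 1 in NICD1&2 against NICD2 (Myc), where 802, 715, 1380 and 1105 of all probes did. In the other comparisons 2247 (NICD1&2 against GFP), 455 (NICD1 against NICD2) and 975 (NICD1&2 against NICD1) did.

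The calls over all probes were few and moved with the processing. Against 3 in NICD1 against GFP, normexp gave 7 and the groups alone 0. Against 19 in NICD2 against GFP, normexp gave 71, no filter 9, the filter of all arrays 45, the groups alone 5, and the replicate block and the slide factor 12 each. Against 36 in NICD1&2 against GFP, normexp gave 346, no filter 23, the filter of all arrays 112, the groups alone 0 and array weights 16. Against 1 in NICD1 against NICD2, quantile normalization, the other 75th percentile and array weights gave 2 each, normexp 5 and the groups alone 0. Against 5 in NICD1&2 against NICD1, quantile normalization gave 3, normexp 51, no filter and array weights 1 each, the filter of all arrays and the slide factor 10 each, and the groups alone and the replicate block 0. The 1 call in NICD1&2 against NICD2 went to 0 under normexp, no filter, the filter of all arrays, the groups alone, array weights, the replicate block and the slide factor, and the filter of all arrays gave 1 for the interaction in place of 0. Leaving out 1 array gave 2 to 4 calls in NICD1 against GFP, 10 to 17 in NICD2 against GFP, 4 to 224 in NICD1&2 against GFP, 1 to 2 in NICD1 against NICD2, 0 to 204 in NICD1&2 against NICD1, 0 to 124 in NICD1&2 against NICD2 and 0 to 12 for the interaction, the highest in the 3 comparisons of NICD1&2 and in the interaction without NICD1&2 1, which leaves NICD1&2 2 assumed to vary like the other groups. The cause was not tested.

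Of 1100 alternative values of the members' differences, 58 changed sign in comparisons with a test, 8 moved by more than the residual SD in those without one (NICD2 against GFP, and Klf10 against GFP), and 1034 did neither. Most changes of sign came from leaving out 1 array. Those ranges in NICD1 against GFP were -0.22 to 0.0682 for Klf6, -1.20 to 1.75 for Fos, -1.09 to 0.59 for Jun, -2.16 to 0.22 for Egr1, -1.29 to 0.62 for Atf3, -0.32 to 0.29 for Ier2, -0.26 to 0.19 for Ier3, and -0.46 to 1.43 and -0.33 to 1.09 for the Myc probes. In NICD2 against GFP they were -0.0815 to 0.11 for Klf6, -1.16 to 1.14 for Fos, -0.66 to 1.04 for Jun, -0.0921 to 0.23 for the brighter Junb probe, -0.91 to 0.91 for Egr1, -2.37 to 0.0759 for Atf3, -0.62 to 0.012 for Ier3, and -1.74 to 0.15 and -0.85 to 0.58 for the Myc probes. In NICD1&2 against GFP they were -0.26 to 0.29 for Klf6, -1.78 to 2.37 for Fos, -0.87 to 0.67 for Jun, -1.06 to 0.18 for the dimmer Junb probe, -2.12 to 0.64 for Egr1, -2.74 to 1.28 for Atf3, -0.0787 to 1.06 for Ier2 and -0.12 to 1.05 for Ier3. In NICD1&2 against NICD1 they were -0.13 to 0.76 and -1.16 to -0.03 for the Klf10 probes, -0.14 to 0.41 for Klf6, -1.63 to 2.51 for Fos, -0.69 to 1.13 for Jun, -0.30 to 0.94 for the dimmer Junb probe, -0.96 to 1.83 for Egr1, -2.25 to 1.77 for Atf3, -0.0365 to 1.13 for Ier3, and -0.35 to 1.35 and -0.23 to 0.85 for the Myc probes. Among the other alternatives, normexp turned Fos in NICD1 against GFP to 0.26, and Klf6 in NICD1&2 against GFP went to -0.0261 under quantile normalization, -0.0641 under the other 75th percentile, -0.0231 with array weights and -0.0564 with the slide factor. The slide factor also gave -0.26 for Klf6, -0.31 for the brighter Junb probe, -0.37 for Ier2, -0.36 for Ier3 and 0.049 for the brighter Myc probe in NICD1 against GFP, and -0.43 for Jun, -1.15 for Egr1 and -1.29 for Atf3 in NICD1&2 against GFP. In NICD1&2 against GFP the slide factor gave -0.25 for Fos, the replicate block 0.46 for Jun and 0.21 for Atf3, and the dimmer Junb probe -0.44. In NICD1&2 against NICD1 the dimmer Klf10 probe, at background with NICD1&2, gave a measured -0.59, and Atf3 went to 0.70 with the replicate block and 0.31 with the slide factor. Under normexp the dimmer Klf10 probe stood at -0.26, -0.39 and -0.36 against GFP in NICD1, NICD2 and NICD1&2.

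The replicate numbers were not taken to pair the arrays, since the deviations over all probes of same-numbered arrays correlated between -0.41 and 0.17, with 6 of 15 pairs above 0.1. Probes not well above background in a group, such as the dimmer Klf10 probe, allow only bounds there.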
